A study of Mus musculus with 12 samples.

Results

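The comparison described here set 2 arrays of untreated mouse embryonic fibroblasts lacking ATF4 (KO) against 2 arrays of untreated wild-type (WT) fibroblasts, 4 of the 12 arrays of the study. The members were chosen by their labels alone, and all 611 mouse miRNA names among the 650 names on the array were considered. The KO cells carried the labelled genotype ATF4KO and the WT cells ATF4WT. Both were of the C57BL/6 background strain, received no drug, and grew in the same serum-containing medium with 2-mercaptoethanol and non-essential amino acids. The other 8 arrays held KO and WT cells after 12 h or 24 h in tunicamycin at 2 ug/mL, a drug that blocks N-linked protein glycosylation and so stresses the endoplasmic reticulum (ER). The design text calls the 2 arrays of each group independent experiments, so p-values measure the spread between those. Whether each genotype was 1 clone, 1 embryo or a pool, and which Atf4 allele was deleted, is not given in the sources used here. The array does not measure Atf4 mRNA, so nothing in these files checks the genotype labels.

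ATF4 is a transcription factor whose mRNA is translated better when the initiation factor eIF2alpha is phosphorylated, and it switches on genes for amino acid synthesis, amino acid transport and the antioxidant response. Fibroblasts without ATF4 are known to depend on added amino acids and a reducing agent, both of which were in the medium used here. miRNAs are short RNAs that guide Argonaute proteins to mRNAs, mainly through bases 2 to 8, the seed. miRNAs with the same seed therefore tend to share targets, and miRNAs cut from 1 primary transcript tend to share their level.

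In untreated KO cells miR-196a, miR-199a-5p, miR-214, miR-193b, miR-455, miR-199a-3p, miR-27b and miR-218 stood highest relative to WT cells, and miR-210, miR-146a, miR-155, miR-129-3p, miR-222, miR-7a, miR-146b and miR-29b stood lowest. The mature sequences of most of these miRNAs are shown with the seed in capitals, together with relatives of the same seed. Of the relatives miR-193 and miR-221 did not move with them, whereas miR-27a, miR-29a and miR-29c did. miR-196b lay above 0 like miR-196a, but by less, and did not pass under the scaling used. miR-497, miR-195 and miR-16 are shown as members of a further seed family. The sequences come from RefSeq (build GRCm38.p6) and were matched through the array's older names, 95 of the 138 tested miRNAs having an entry.
miR-199a-5p: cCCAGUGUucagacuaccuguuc
miR-199a-3p: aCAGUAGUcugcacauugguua
miR-214: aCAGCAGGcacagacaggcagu
miR-196a: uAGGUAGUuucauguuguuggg
miR-196b: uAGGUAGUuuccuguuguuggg
miR-193b: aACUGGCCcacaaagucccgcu
miR-193: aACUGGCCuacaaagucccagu
miR-27a: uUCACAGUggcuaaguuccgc
miR-27b: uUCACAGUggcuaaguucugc
miR-210: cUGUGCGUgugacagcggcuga
miR-155: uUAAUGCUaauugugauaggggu
miR-146a: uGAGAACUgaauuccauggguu
miR-146b: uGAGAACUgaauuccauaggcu
miR-222: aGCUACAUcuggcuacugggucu
miR-221: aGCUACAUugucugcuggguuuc
miR-7a: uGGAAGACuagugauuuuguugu
miR-129-3p: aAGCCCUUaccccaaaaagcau
miR-29a: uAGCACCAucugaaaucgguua
miR-29b: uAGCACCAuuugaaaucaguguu
miR-29c: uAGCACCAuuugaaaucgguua
miR-497: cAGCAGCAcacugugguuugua
miR-195: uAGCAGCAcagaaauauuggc
miR-16: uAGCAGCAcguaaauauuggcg

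All 4 untreated arrays lay on 1 slide, with the KO arrays in row 2 and the WT arrays in row 1, so genotype and slide row cannot be told apart. The same-numbered KO and WT arrays were scanned together. The arrays detected 132 and 141 mouse miRNAs well above background in KO cells and 148 and 121 in WT cells, and no spot was saturated. The 138 miRNAs that passed this mark on both arrays of 1 genotype or of both were tested, and the other 473 were left out as too dim. Of those tested, 114 passed the mark on all 4 arrays. On both KO arrays and neither WT array 4 passed it (miR-196a, miR-455, miR-214* and miR-378). On both WT arrays and neither KO array 3 did (miR-146a, miR-195 and miR-497). The values of those 4 and 3 in the dim genotype were set to a floor, so their p-values follow in part from the filter and the floor and are given as descriptions. The rest passed on only 1 array of the other genotype. They too entered the test through 1 genotype, and their calls follow in part from the filter. Signals are processed intensities in arbitrary units, summed over a miRNA's probes. For comparison each was divided by its array's 75th percentile, which was 709.5 and 791.2 in KO cells and 577.0 and 555.7 in WT cells. Differences are KO minus WT on the log2 scale after that division, ± standard error (n = 2 arrays each), and adjusted p-values come from limma with Benjamini-Hochberg adjustment over the 138 miRNAs. Scaled signals under a floor of -4.93 (log2) were raised to it, so differences that reach the floor are limited by it. Precision is limited by the number of arrays.

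The cells carried most miRNAs of a fibroblast list, which does not by itself identify the cell type. Of 30 miRNAs known to be abundant in fibroblasts, 28 were tested, and their signals summed to 39674 and 44880.2 in KO cells and 41374 and 40486 in WT cells. The exceptions, miR-145 and miR-191, were not well above background on any of the 4 arrays. No member of the lists of epithelial (7), blood and endothelial (9), muscle (7), neural (8) or pluripotent (22) miRNAs was bright enough to be tested. The blood and endothelial list summed to 24.0 and 16.9 in KO cells and 24.97 and 27.42 in WT cells, the pluripotent list, with 1 member well above background on at least 1 array, to 101.7 and 23.4 in KO against 90.3 and 47.5 in WT cells, the muscle list to 6.74 and 0 in KO against 8.18 and 3.88 in WT cells, the neural list to 14.4 and 10.9 in KO against 18.5 and 17.5 in WT cells, and the epithelial list to 0.324 and 0 in KO against 0.964 and 1.08 in WT cells.

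Of the 138 tested miRNAs 96 passed an adjusted p of 0.05 in limma (69.6%), 18 of them higher in KO cells (13% of those tested) and 78 lower (56.5%). The 2 KO values did not overlap the 2 WT values for 120 of the 138 (87%), and for all 96 that passed. The median difference over all tested miRNAs was -0.53, so that a miRNA at the median counted as lower. This split followed the scaling. It was 32 higher and 55 lower with median scaling (median difference -0.21), 33 and 32 with quantile normalization (-0.07), 32 and 35 with no scaling (-0.14), and 13 and 8 when the percentile was taken over all 611 miRNAs (0.01). Of the 96, 75 kept their sign under all these scalings, 18 higher and 57 lower. A set of 40 miRNAs, 18 higher and 22 lower, passed in the same direction under the median, quantile, unscaled and 4-array percentile settings. These 40 include 28 of the 30 largest differences, and all 30 kept their sign under every scaling. The median difference was higher under every other scaling, from -0.43 to 0.01, than under the one used. Increases could therefore hardly lose their sign, and that they kept it is a weak check. With normexp background correction 0 passed in limma (1 at an unadjusted p under 0.05), and 100 passed once spots of outlying local background were left out of it. With the scanner software's total gene signal 39 passed. Differences near the median are therefore given as levels and counts, and the largest in full.

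**Figure D1:**
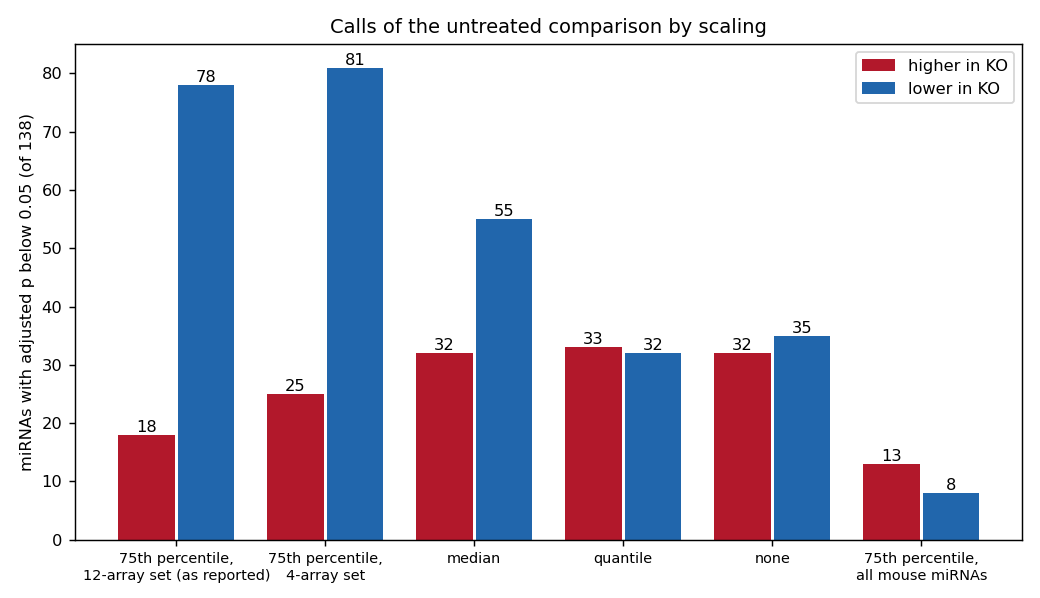
Number of tested miRNAs past an adjusted p of 0.05 (y axis) that were higher (red) or lower (blue) in untreated KO than in WT cells, for 6 ways of scaling the arrays (x axis). The scaling used in the text showed 18 higher and 78 lower, and quantile normalization showed 33 higher and 32 lower.

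The spread between replicates was small. The pooled SD was 0.12 in KO cells and 0.14 in WT cells, and the differences of replicate 1 and replicate 2 correlated at 0.986 across the 138 miRNAs, which are not independent replicates. In the tunicamycin groups the pooled SD was 0.47 to 1.03. With all 6 groups fitted together, and so with those SDs pooled, 47 of the 138 and 7 further miRNAs passed (32.4%), 10 higher and 37 lower, and 45 of them were among the 96. For 55 of the 96 at least 2 probes were bright, and the probes of all 55 had the same sign.

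**Figure D2:**
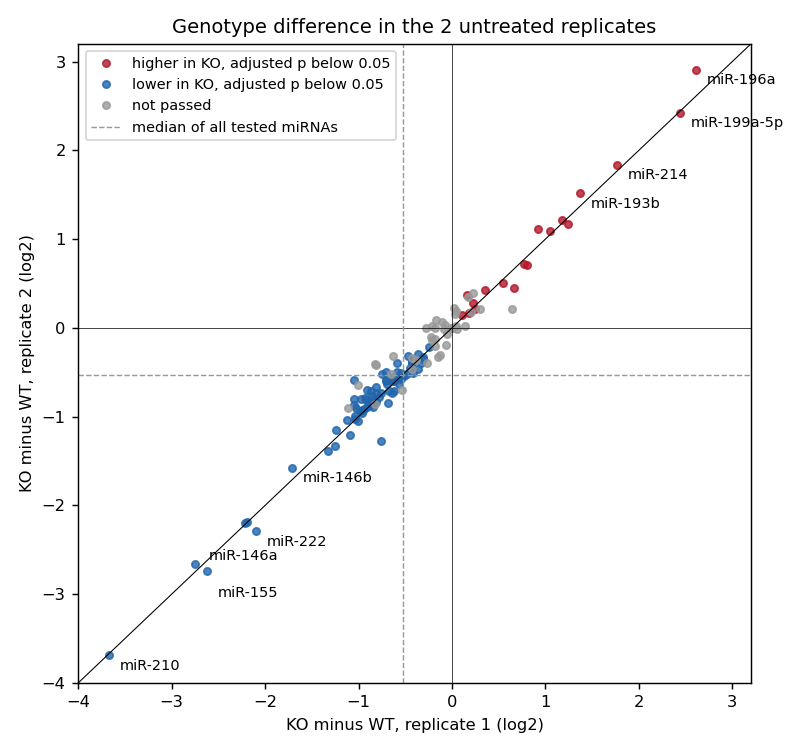
Difference between KO and WT cells in replicate 1 (x axis, log2) against replicate 2 (y axis, log2) for the 138 tested miRNAs. Points lie along the line of equality (correlation 0.986) and most sit below 0, around the dashed median of -0.53.

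The miRNAs of the Dnm3os transcript were higher in KO cells. The arms miR-199a-5p, miR-199a-3p, miR-214* and miR-214 lie at chr1:162217844-162223459 (plus strand), inside the long noncoding RNA gene Dnm3os and the protein-coding gene Dnm3, and Dnm3os is known as a mesenchymal transcript needed for skeletal growth. miR-199a-5p had signals of 753 and 789 in KO cells, against 113 and 103 in WT cells. Both KO arrays lay far above both WT arrays, with a difference of 2.43 ± 0.05 (adjusted p = 0.000573, limma). miR-214, which is known to target Atf4 mRNA in osteoblasts, had signals of 1422 and 1504 in KO cells and 338.8 and 295.3 in WT cells. The difference was 1.81 ± 0.07 (adjusted p = 0.00093, limma). miR-199a-3p was the brightest of the group, at 2830 and 3254 in KO cells and 1013 and 983 in WT cells, with a difference of 1.20 ± 0.03.

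The members of this group also come from other places in the genome. A copy of miR-199a lies at chr9:21496498-21496559 (minus strand) inside Dnm2, and the letters of miR-199a-3p are those of miR-199b-3p, so the array cannot tell these copies apart. miR-199b*, the 5p arm of miR-199b, was higher in KO cells too, with 574 and 629 there and 273 and 268 in WT cells (difference 0.75 ± 0.03). miR-214*, the passenger arm of miR-214, was well above background on both KO arrays (11.1 and 12.3) and on neither WT array (-0.224 and -3.03). All 4 of its values lay at the floor, so it has no difference. Of the 5 members tested 4 were higher and 0 lower, beside 13% and 56.5% over all tested miRNAs. The list median was 1.20 beside -0.53 over all miRNAs. The counts were the same under each of the 5 other scalings, but all of these raised the median difference and so could hardly turn an increase.

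miR-196a, which sits in the Hox clusters and is known to target Hoxb8, showed the largest increase. Its signals were 142 and 195 in KO cells and 9.99 and 10.67 in WT cells. It was well above background on both KO arrays and on neither WT array, and was at least 8.51-fold higher in KO cells (2.76 ± 0.13, adjusted p = 0.00126, limma). It entered the test through KO cells alone and its WT values were raised to the floor, so the p-value is a description. RefSeq places it at chr11:96265187-96265208 and at chr15:102973365-102973386, both plus strand. miR-196b has the same seed but lies in the Hoxa region, at chr6:52230129-52230150 (minus strand). It had signals of 142 and 167 in KO cells and 99.6 and 104 in WT cells, with a difference of 0.19 ± 0.06 that did not pass (adjusted p = 0.0692, limma). It passed as higher with median scaling (0.52), quantile normalization (0.80), the 4-array percentile (0.31) and no scaling (0.60). All of these raised the median difference.

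miR-193b, known in mouse for its role in brown fat cells, had signals of 103 and 121 in KO cells and 32.4 and 29.6 in WT cells, a difference of 1.45 ± 0.05 (adjusted p = 0.00079, limma). miR-193 (now miR-193a-3p) shares its seed and ran the other way, with 135.7 and 132.1 in KO cells against 176.1 and 151.9 in WT cells. Its difference was -0.69 ± 0.11 (adjusted p = 0.0146, limma), close to the median of all miRNAs, and it was singled out after its values were seen. The pair lie on different chromosomes, miR-193b at chr16:13449570-13449591 and miR-193 at chr11:79712009-79712030.

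miR-455 lies in Col27a1, a cartilage collagen gene, at chr4:63256904-63256924 (plus strand). It had signals of 55.1 and 58.3 in KO cells and -0.237 and -0.742 in WT cells, where no probe was well above background. It was at least 2.90-fold higher in KO cells (1.20 ± 0.04, adjusted p = 0.000749, limma). This p-value too is a description, since miR-455 entered the test through KO cells alone and its WT values were raised to the floor. miR-378 was also well above background only in KO cells, at 20.3 and 19.5 in KO cells against 13.6 and 13.3 in WT cells, but all 4 values lay at the floor and no fold is given.

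The clusters of miR-23, miR-27 and miR-24 were higher in 5 of 6 tested members and lower in 0, beside 13% and 56.5% of all tested miRNAs. Of the 5, miR-24-1* entered the test through KO cells alone and its WT values were raised to the floor. That it counts as higher follows in part from the filter. Their list median was 0.46, and miR-27 is known to repress Pparg and the formation of fat cells. miR-27b, at chr13:63300760-63300780 in Aopep, had signals of 249 and 267 in KO cells and 97.9 and 88.2 in WT cells (1.07 ± 0.05). miR-27a, from the other cluster at chr8:84208727-84208747, had 1232 and 1276 in KO cells and 572 and 550 in WT cells (0.76 ± 0.05). miR-23b (0.39 ± 0.03) and miR-23a (0.18 ± 0.02) were higher by less. miR-24, which both clusters encode, had 922 and 1060 in KO cells and 809 and 710 in WT cells, a difference of -0.02 ± 0.06 that did not pass (adjusted p = 0.8, limma) and that became 0.30, past the threshold, with median scaling. Members of 1 cluster thus differed in size, from 1.07 for miR-27b to -0.02 for miR-24.

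**Figure D3:**
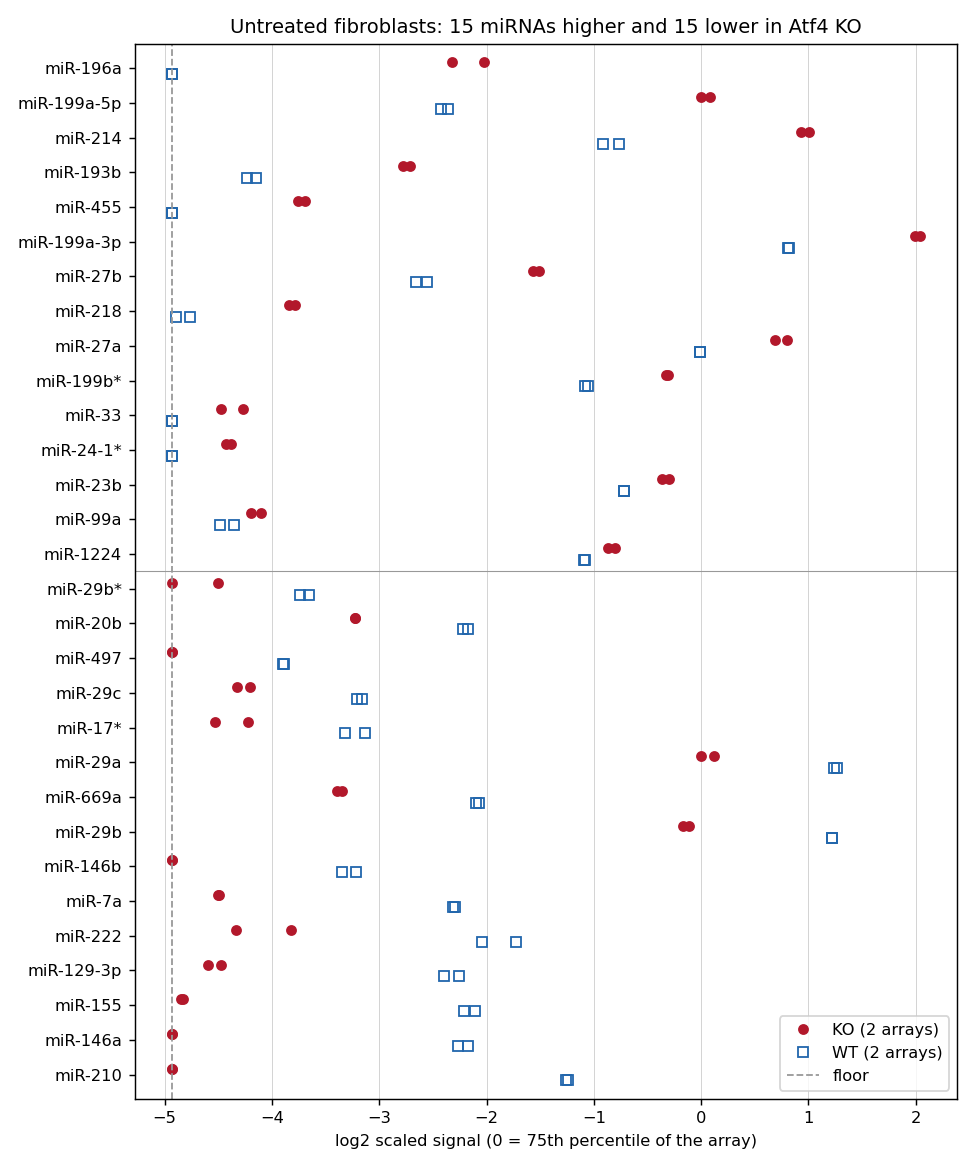
Log2 scaled signal (x axis) of the 15 miRNAs with the largest increase and the 15 with the largest decrease in untreated KO cells (y axis), with 2 KO arrays (filled circles) above 2 WT arrays (open squares) for each. The dashed line is the floor of -4.93, and no miRNA has overlapping genotypes.

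The rest of the 15 largest increases were in dimmer or less shifted miRNAs. miR-218, encoded within the axon guidance genes Slit2 and Slit3, had signals of 49.4 and 57.5 in KO cells and 21.2 and 18.7 in WT cells (1.02 ± 0.06). miR-33, encoded in the sterol regulator gene Srebf2 and known to repress the cholesterol transporter Abca1, had 36.8 and 35.6 in KO cells and 18.8 and 14.8 in WT cells (0.56 ± 0.09). miR-24-1* had 34.1 and 36.8 in KO cells and 16.5 and 14.7 in WT cells (0.53 ± 0.03). These 3 were well above background on 1 of 2 WT arrays. They entered the test through KO cells alone, so their calls and p-values follow in part from the filter. For miR-33 and miR-24-1* both WT values lay under the floor, so their differences are limited by it and their standard errors leave out the WT spread. miR-1224 (0.25 ± 0.03) and miR-99a (0.27 ± 0.07, adjusted p = 0.0449) were the smallest of the 15. miR-99a did not pass with the replicate number as a block (adjusted p = 0.0699, limma).

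miR-210, the best-known miRNA of the hypoxia response, showed the largest decrease. It had signals of 21.3 and 23.2 in KO cells, against 241 and 236 in WT cells. The KO values were well above background but under the floor, and the difference was -3.68 ± 0.02 (adjusted p = 0.000107, limma). miR-210 is encoded at chr7:141221407-141221428 (minus strand).

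The 3 tested miRNAs of the inflammation list were all lower in KO cells, beside 56.5% of all tested miRNAs. miR-146a, which NF-kappaB induces and which is known to target Traf6 and Irak1, had signals of 1.45 and 0.0803 in KO cells and 128 and 115 in WT cells. It was well above background on both WT arrays and on neither KO array, and was at least 13.7-fold lower in KO cells (-2.71 ± 0.04, adjusted p = 0.000573, limma). It entered the test through WT cells alone, so its p-value is a description and its count as lower follows in part from the filter. miR-146b, from another chromosome but with the same seed, had 22.4 and 21.8 in KO cells and 62.2 and 54.4 in WT cells (-1.65 ± 0.06). Both its KO values lay under the floor, so its difference is limited by it and its standard error leaves out the KO spread. miR-155, which is induced in activated immune cells and targets Socs1, had 24.9 and 27.4 in KO cells and 125 and 129 in WT cells (-2.68 ± 0.05, adjusted p = 0.000573, limma). The list median was -2.68, and all 3 passed under each of the 5 other scalings. miR-223, the blood-cell member of that list, was not bright enough to be tested.

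miR-222 and miR-221 share a seed and are neighbours at chrX:19146307-19146923 (minus strand), and both are known to target the cell-cycle inhibitor Cdkn1b. miR-222 had signals of 50.3 and 39.2 in KO cells and 175 and 135 in WT cells, a difference of -2.20 ± 0.25 (adjusted p = 0.00787, limma). Its replicates were further apart than those of the rest of the 15 largest decreases, but the genotypes did not overlap. miR-221 had 263 and 300 in KO cells and 221.8 and 220.9 in WT cells, a difference of -0.06 ± 0.03 (adjusted p = 0.178, limma). It was higher in KO cells with median scaling (0.26) and quantile normalization (0.32), both past the threshold. The difference of miR-222 minus that of miR-221 was -2.14, a value from which any constant that scales a whole array drops out.

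miR-7a and miR-129-3p, both best known from neurons and endocrine cells, were lower in KO cells. miR-7a had signals of 31.51 and 34.96 in KO cells and 117 and 112 in WT cells (-2.19 ± 0.02, adjusted p = 0.000202, limma). It is encoded at chr7:78888295-78888317 and, inside Hnrnpk, at chr13:58392841-58392863. miR-129-3p had 32.0 and 32.8 in KO cells and 120 and 106 in WT cells (-2.20 ± 0.08, adjusted p = 0.000813, limma). For both the scanner software's own total gene signal gave the other direction, a difference of 4.25 for miR-7a and 1.82 for miR-129-3p. The software's probe totals kept the reported direction. They summed to 20.9 and 23.7 in KO and 75.8 and 77.1 in WT cells for miR-7a. For miR-129-3p they summed to 21.2 and 22.2 in KO and 77.8 and 72.7 in WT cells. The total gene signal likewise turned round miR-17* (2.61), miR-218 (-2.96) and miR-24-1* (-2.37), whose probe totals also kept the reported direction. On the KO arrays this total differed by over 5% from the sum of the probe totals it should combine for 51 of 155 and 47 of 157 detected miRNAs, and on the WT arrays for 55 of 177 and 47 of 143. The cause was not tested.

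All 4 tested members of the miR-29 family, known for repressing collagens and other matrix genes, were lower in KO cells, beside 56.5% of all. miR-29b had signals of 657 and 702 in KO cells and 1342 and 1291 in WT cells (-1.36 ± 0.03, adjusted p = 0.000573, limma). miR-29a had 708 and 857 in KO cells and 1357 and 1336 in WT cells (-1.19 ± 0.05). The dimmer miR-29c had 35.3 and 43.0 in KO cells and 62.3 and 62.1 in WT cells (-1.08 ± 0.06), and the passenger arm miR-29b* was lower too (-1.02 ± 0.18). The family comes from chr1:195037091-195037621 and chr6:31062673-31063047, and the members of both loci moved together. The list median of -1.14 lay 0.61 below that of all miRNAs. All 4 stayed below 0 under each other scaling, with 4 passing under median scaling, 3 under quantile normalization and 0 with the percentile over all mouse miRNAs.

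Of the miR-15/16 seed family, which targets cyclin D1 and Bcl2, 6 of 6 tested members were lower, beside 56.5% of all miRNAs, with a median of -0.76. The number lower was 4 with median scaling, 3 with quantile normalization, 3 unscaled and 1 with the percentile over all mouse miRNAs. miR-497 and miR-195, neighbours at chr11:70234730-70235082, were well above background on both WT arrays and on neither KO array. They entered the test through WT cells alone, so that they count as lower follows in part from the filter and the floor. miR-497 had 11.3 and 9.74 in KO cells and 39.0 and 37.3 in WT cells and was at least 4.28-fold lower in KO cells. miR-195 had 9.08 and 10.2 in KO cells and 34.0 and 33.8 in WT cells and was at least 3.83-fold lower. The brighter miR-16 had 410.7 and 462.2 in KO cells and 572 and 558 in WT cells (-0.78 ± 0.02), and miR-15b (-0.74 ± 0.13), miR-15a (-0.55 ± 0.05) and miR-322 (-0.36 ± 0.09) followed. miR-322 and miR-15a lay above 0 when the percentile was taken over all mouse miRNAs, and miR-322 also when unscaled.

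Of the miR-17~92 cluster and its miR-106a paralog cluster, which Myc induces and which target Bcl2l11, 6 of 6 tested members were lower. The share lower over all tested miRNAs was 56.5%, and the 6 lay between -1.03 and -0.83. miR-20b had signals of 75.9 and 84.4 in KO cells and 124 and 123 in WT cells (-1.03 ± 0.03). miR-20a (-0.94 ± 0.03), miR-19b (-0.86 ± 0.03) and miR-92a (-0.83 ± 0.09) lay close to it, and miR-17*, the passenger arm of the founding member, stood at -1.15 ± 0.15. All 6 lay below 0 under each other scaling, and 6 passed with median scaling, 5 unscaled, 4 with quantile normalization, and 0 with the percentile over all mouse miRNAs or with all 6 groups fitted together in limma. The related miR-106b~25 cluster in Mcm7, which is known to be repressed in ER stress, was lower in 3 of 3 members, but with a median of -0.54 it lay at the median of all miRNAs. Its miR-93 and miR-25 lay above 0 with the percentile over all mouse miRNAs, at 0.16 and 0.02.

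The miR-34 family, known as direct targets of p53, was lower in 3 of 3 tested members, beside 56.5% of all, with a median of -0.90. miR-34a had signals of 80.2 and 97.8 in KO cells and 134.02 and 136.65 in WT cells (-1.02 ± 0.07, adjusted p = 0.00224, limma). miR-34b-5p had 32.0 and 37.6 in KO cells and 48.8 and 49.2 in WT cells (-0.90 ± 0.05), and miR-34c 58.3 and 62.8 in KO cells against 70.0 and 68.2 in WT cells (-0.60 ± 0.03). All 3 stayed below 0 under each other scaling, and 0 of 3 passed with quantile normalization or the percentile over all mouse miRNAs.

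**Figure D4:**
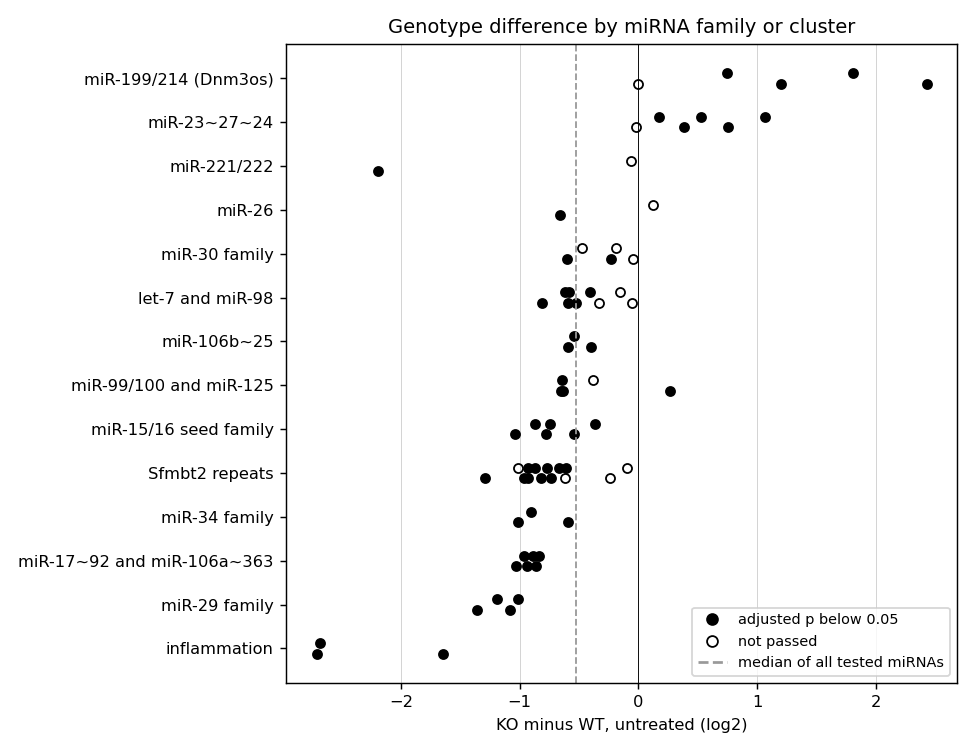
Difference between untreated KO and WT cells (x axis, log2) of each tested member of 14 families or clusters (y axis), with filled points past an adjusted p of 0.05. In the lists of miR-199 with miR-214 and of miR-23, miR-27 and miR-24 every member but miR-214* (0) and miR-24 (-0.02) lies above 0, and most others lie at or below the dashed median of all tested miRNAs (-0.53).

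Of the miR-466, miR-467 and miR-669 list, near-identical repeats best known from the Sfmbt2 gene, 10 of 14 tested members were lower and 0 higher, with a median of -0.79, beside 56.5% lower and 13% higher over all miRNAs. Of the 14, 12 were well above background on all 4 arrays, and the rest entered the test through 1 genotype. The 1 tested member with a RefSeq entry lies in another gene, Fxr2. miR-669a had signals of 69.5 and 75.2 in KO cells and 135 and 133 in WT cells (-1.29 ± 0.03). Members of this list resemble each other in sequence and may share signal, so they are not independent. The number lower was 7 with median scaling, 5 unscaled, 2 with quantile normalization (1 higher) and 0 with the percentile over all mouse miRNAs.

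Of the 28 tested miRNAs known to be abundant in fibroblasts 6 were higher and 14 lower in KO cells, with a median of -0.36. Over all tested miRNAs 13% were higher and 56.5% lower, with a median of -0.53. miR-21, the brightest of all, which targets Pdcd4, had signals of 17557 and 19671 in KO cells and 20770 and 20634 in WT cells, a difference of -0.56 ± 0.03. miR-125b-5p (-0.65 ± 0.07) and miR-22 (-0.69 ± 0.10) were alike in size, whereas miR-199a-3p, also bright, stood at 1.20. Of let-7 and miR-98, which repress Lin28 and Hmga2, 6 of 9 were lower and 0 higher. Their median of -0.53 was that of all tested miRNAs, so the list did not stand apart from the rest. Its let-7a had 1262 and 1545 in KO cells against 1502 and 1540 in WT cells. With signals left unscaled 0 of the 9 passed in limma. Within the miR-26 family miR-26b was lower (-0.66 ± 0.04) and miR-26a had 309 and 364 in KO cells against 247 and 219 in WT cells (0.12 ± 0.06, adjusted p = 0.176, limma). miR-26a passed as higher with median scaling (0.44), the 4-array percentile (0.24) and no scaling (0.53). miR-720, a name linked to tRNA fragments, had 2504 and 2958 in KO cells and 3312 and 2926 in WT cells (-0.60 ± 0.07).

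Among 28 miRNAs tied to the unfolded protein response 17 were tested, of which 6 were higher and 7 lower in KO cells, with a median of -0.06, beside 13% higher and 56.5% lower over all tested miRNAs. The higher ones included miR-199a-5p, miR-214, miR-27a and miR-455, and the lower ones miR-222, miR-34a and miR-106b, as described above. Of the 17, 15 were well above background on all 4 arrays. The higher miR-455 and miR-181b were not, so that they count as higher follows in part from the filter. The list thus had members at both ends. With quantile normalization the counts were 9 higher and 2 lower.

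The tunicamycin arrays, which are other samples on another slide, allow the genotype difference to be set beside that of stressed cells. Slide and treatment cannot be told apart, but each slide held both genotypes. On the second slide too the KO arrays lay in row 2 and the WT arrays in row 1, so genotype and row cannot be told apart there either. Of the 15 largest increases 12 were also above 0 at 12 h and 13 at 24 h, beside 55.2% and 46.9% of all miRNAs in that fit. Of the 15 largest decreases 12 were below 0 at 12 h and 13 at 24 h, beside 37.2% and 47.6%. Of all 18 higher miRNAs 15 were above 0 at 12 h and 16 at 24 h, and of all 78 lower ones 38 were below 0 at 12 h and 50 at 24 h. The median difference of all miRNAs was 0.04 at 12 h and 0 at 24 h.

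The genotype difference of miR-199a-5p was 2.62 at 12 h and 2.07 at 24 h, that of miR-214 2.62 and 1.98, and that of miR-196a 2.84 and 1.68. miR-7a stood at -1.89 and -2.18, miR-155 at -2.42 and -2.03, and miR-222 at -1.41 and -1.61. All 6 passed at 12 h, and all but miR-196a (adjusted p = 0.0854, limma) at 24 h. For these 6 the untreated difference was not shown to differ from either time (adjusted p of the difference from 0.326 to 1, limma). miR-210 was lower in KO cells at both times as well, by -1.29 and -2.05, but by less than in untreated cells, the change in its genotype difference being -2.39 at 12 h (adjusted p = 0.00112) and -1.63 at 24 h (adjusted p = 0.00857, limma).

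The genotype difference of untreated cells differed from that at 12 h for 33 miRNAs (22.8% of those in that fit), 3 of them more positive and 30 more negative untreated, and from that at 24 h for 12 (8.28%), 1 and 11. miR-455, miR-497 and miR-195 lay at the floor in both genotypes at 12 h and 24 h, and miR-146a did so at 12 h. miR-146b, at the floor in untreated KO cells, was -1.65 untreated, 1.20 at 12 h and 0.51 at 24 h, and miR-34c was -0.60, 1.69 and 2.39. These counts were 3 and 5 with median scaling and 5 and 4 with quantile normalization. When only the 82 miRNAs detected on each of the 12 arrays were kept, they were 19 and 0 in limma (29 and 19 at an unadjusted p under 0.05). Without 1 of the untreated arrays they were 10 to 19 and 6 to 7, without KO replicate 2 at 12 h 11 and 7, and without KO replicate 2 at 24 h 48 and 34. The 12 h count was 19 without WT replicate 2 at 12 h, and the 24 h count 7 without KO replicate 1 at 12 h, 6 without WT replicate 2 at 24 h and 33 without KO replicate 1 at 24 h.

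**Figure D5:**
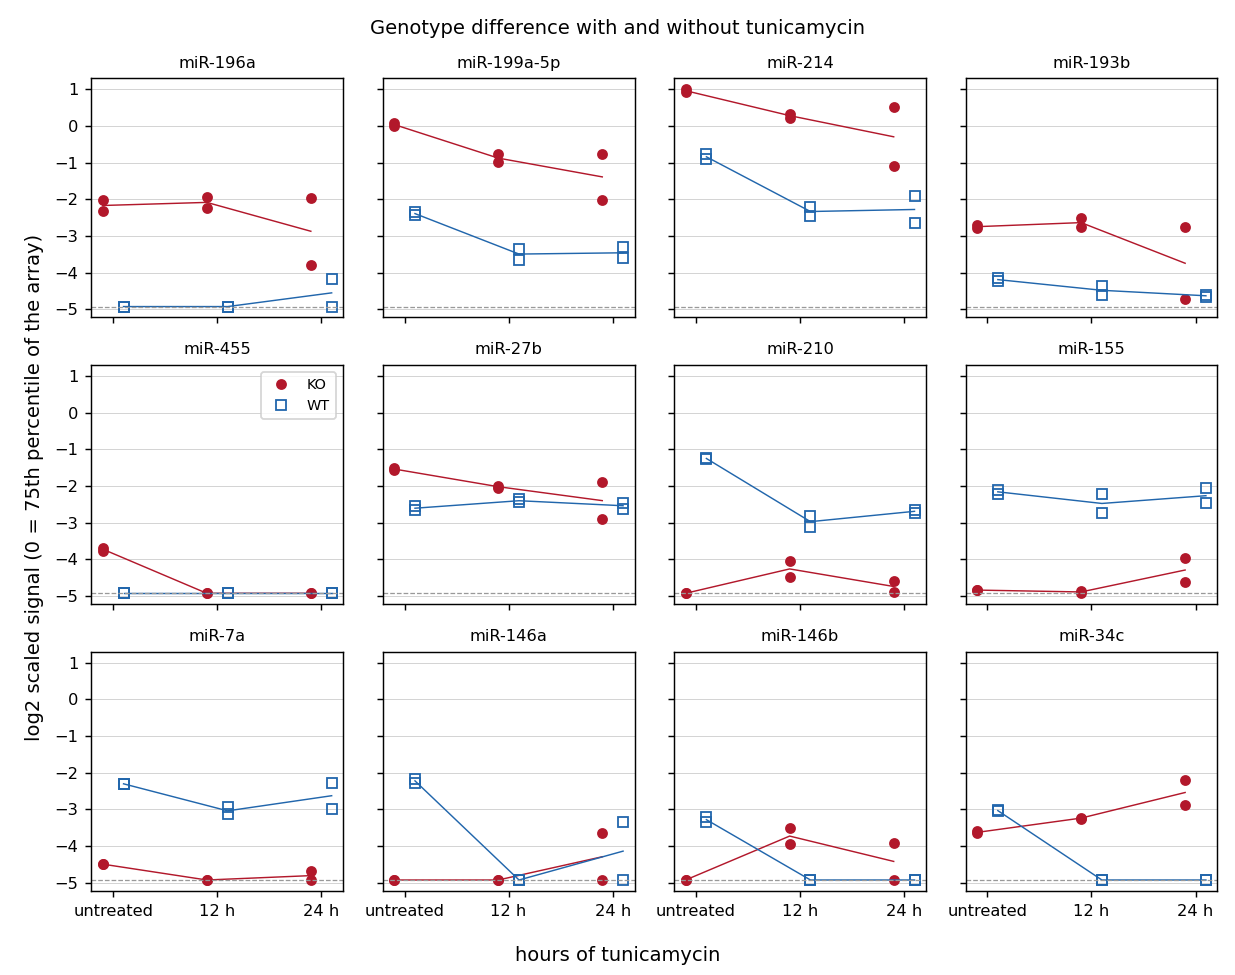
Log2 scaled signal (y axis) of 12 miRNAs in untreated cells and after 12 h and 24 h of tunicamycin (x axis), with KO arrays as filled circles, WT arrays as open squares, and lines through the group means. miR-199a-5p and miR-214 stay higher and miR-155 and miR-7a lower in KO cells at each time, whereas miR-146b and miR-34c turn round.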

How the data were processed

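Total RNA was labelled with Cy3 and hybridised to Agilent 1-colour miRNA arrays, and images were read by the authors with Agilent Feature Extraction 10.7.1.1, per the submitters' processing notes. Per the file headers the deposited spot values are intensity values in arbitrary units, and the processed signal is background-subtracted and not scaled between arrays. Other deposited columns are flags of 0 or 1. The value table the authors deposited holds log2 values of the software's total gene signal, unscaled and uncentred, with column medians of 5.44 to 6.90 and blanks where nothing was detected. It served as an alternative.

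The 13000 non-control spots made up 1857 probes. Processed signals were averaged over the spots of a probe, outlier spots left out, and added up over the probes of a miRNA. For scaling, each array's 75th percentile was taken over 82 miRNAs that all 12 arrays detected well above background, and signals were divided by it. Lower values were raised to a floor of 0.0328, the median of the arrays' 1st percentiles of scaled detected signals, before taking log2. Detection of a probe required the well-above-background flag on 50 percent of its spots or more, and detection of a miRNA 1 such probe. Bounds written as "at least" raise the dim genotype to the lowest signal well above background on each array and allow for that limit only.

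The 4 untreated arrays were fitted alone in R 4.3.3 with limma 3.58.1 (lmFit and eBayes, no block), giving 2 residual and 0.91 prior degrees of freedom, because the tunicamycin groups had a larger spread. Where all values of a miRNA in a group lie at the floor, its standard error rests on the other values and the prior. Genotype differences at 12 h and 24 h, and their difference from the untreated one, came from a fit of all 6 groups over these 138 and 7 further miRNAs. The replicate numbers mark arrays scanned together, per the file headers, and same-numbered arrays deviated together (correlation 0.70), so the numbers were taken to pair the arrays. The block changed the untreated count to 113.

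The miRNAs named are the 15 with the largest difference each way among those past the threshold without overlap, every miRNA well above background on both arrays of 1 genotype and none of the other, and up to 4 members of each list. The members and lists were chosen with earlier results of these data known. Alternatives covered scaling, background correction, the measure per miRNA, floor, filter, spread estimate, block and leaving out each array. The files hold no mean spot signal, so normexp (offset 50) ran on the median signal. The fit was tested on simulated arrays.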

Additional observations from a re-analysis of the deposited data

Results flagged for a closer look

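The miRNAs listed here had a genotype difference (KO minus WT) in untreated cells that differed from the one under tunicamycin in the limma fit of 12 arrays. Values are the untreated difference minus the difference at that time, in log2 units. The tunicamycin arrays lay on another slide, and these calls depend strongly on the scaling and on single arrays, as given with the processing.

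At 12 h this held for 23 of 66 miRNAs named in the text, 3 of them positive and 20 negative. Among the largest untreated differences it was 1.20 for miR-455, 0.53 for miR-24-1*, -2.39 for miR-210, -2.71 for miR-146a, -1.93 for miR-129-3p, -2.85 for miR-146b, -1.04 for miR-497 and -0.87 for miR-195. Of these miR-455, miR-146a, miR-497 and miR-195 lay at the floor in both genotypes at 12 h, so their values are the untreated differences themselves. In the p53-linked miR-34 family it was -1.95 for miR-34b-5p and -2.29 for miR-34c. In the miR-15/16 seed family and the miR-106b~25 cluster it was -0.99 for miR-16, -2.12 for miR-322, -1.14 for miR-106b and -0.88 for miR-25. Among let-7 and miR-26 it was -0.63 for let-7b, -1.58 for let-7i, -1.27 for miR-26a and -1.36 for miR-26b. It was 1.06 for miR-221, -0.89 for miR-196b, -0.97 for miR-21, -2.03 for miR-148a and -0.98 for miR-130a.

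At 24 h it held for 11 of the 66, 1 positive and 10 negative. The value was again 1.20 for miR-455, -1.04 for miR-497 and -0.87 for miR-195, which lay at the floor in both genotypes at both times. It was -1.63 for miR-210, -2.15 for miR-146b, -0.97 for miR-26a, -1.53 for miR-148a and -0.81 for miR-130a. All 3 tested members of the miR-34 family were among these, with -2.60 for miR-34a, -2.62 for miR-34b-5p and -2.98 for miR-34c.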

How the results depend on the processing

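The untreated comparison called 96 miRNAs, and 65 to 106 under median, quantile, 4-array percentile and no scaling, 0.5 and 2 times the floor, the mean of log2 over probes, an intensity trend, no moderation and detection on all 4 arrays. It called 21 with the percentile over all mouse miRNAs, 39 with the total gene signal or the deposited table, 45 with no filter (611 tested), 47 with 6 groups fitted together, and 66 to 71 with 1 array left out. The block called 113 (20 higher and 93 lower), kept 95 of the 96 and lost miR-99a. It changed no other call of the 96, and under it the 12 h count was 33 and the 24 h count 15.

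The difference from the 12 h genotype difference (33 calls) gave 3 calls with median scaling, 5 with quantile normalization, 13 with none, 1 with the total gene signal and 19 with detection on all arrays. That from 24 h (12 calls) gave 5, 4, 15, 3 and, in limma over the 82 miRNAs detected on all arrays, 0 (19 at an unadjusted p under 0.05). With 1 array left out they gave 10 to 48 and 6 to 34.

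Of the 96 calls, the sign turned for 2 with median scaling, 11 with quantile normalization, 19 with the percentile over all mouse miRNAs, 8 unscaled, 9 with the total gene signal or the deposited table, 58 with normexp and 0 with 1 array left out. Listed next are those of the 66 miRNAs followed singly that turned and passed in the reported or the other setting. Other calls turned too, among them miR-103 (up to 0.24 by scaling) and miR-30e (up to 0.10), and are only counted here. The 11 calls turned by quantile normalization are not among the 66. With median scaling miR-24 was 0.30, miR-30a 0.089 and miR-221 0.26, and with quantile normalization miR-221 was 0.32. With the percentile over all mouse miRNAs miR-15a was 0.014, miR-322 0.20, miR-93 0.16, miR-25 0.018, miR-30a 0.33 and let-7a 0.031, and with no scaling miR-30a was 0.17, miR-322 0.040 and miR-93 0.0072. With the software's total gene signal, and so with the deposited table, miR-218 was -2.96, miR-24-1* -2.37, miR-129-3p 1.82, miR-7a 4.25, miR-181b -0.54 and miR-17* 2.61. The cause was not tested.

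With normexp 0 miRNAs passed in limma (1 at an unadjusted p under 0.05), and these lay opposite to the reported sign: miR-146a 0.40, miR-155 0.37, miR-129-3p 0.45, miR-222 0.22, miR-7a 0.44, miR-146b 0.83, miR-669a 0.34, miR-17* 0.80, miR-29c 0.80, miR-148a 0.82, miR-30a 0.38, miR-497 0.98, miR-20b 0.40, miR-29b* 0.83, miR-195 1.01, miR-23a -0.056, miR-193 0.29, miR-34a 0.34, miR-34b-5p 0.92, miR-34c 0.76, miR-322 0.43, miR-106b 0.040, miR-93 0.43, miR-25 0.25 and miR-26b 0.37. Without spots of outlying local background, a setting added after seeing the data, normexp called 100 (11 higher and 89 lower), and among the miRNAs named in the text miR-99a (-0.021) and miR-143 (-0.18) had the opposite sign. Without miRNAs at the floor on any of the 4 arrays, also added later, 90 of 113 passed. Signal over background limits what can be seen of dim miRNAs: 16 tested miRNAs lay at the floor on both KO arrays and 9 on both WT arrays.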

Other observations

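Smaller families lay between the 2 ends, and their counts stand beside 56.5% lower and 13% higher over all tested miRNAs. Both tested members of the miR-130 and miR-301 list were lower in KO cells, with a median of -0.67. Its miR-130a, known to repress Pparg, had signals of 865.1 and 948.2 in KO cells and 1252 and 1197 in WT cells (-0.84 ± 0.02). With quantile normalization 1 of the list passed, and with the percentile over all mouse miRNAs 0. Both tested members of the miR-148 list were lower (median -0.73), among them miR-148a, known to target Dnmt1, at 35.7 and 43.1 in KO cells and 59.1 and 56.8 in WT cells (-0.97 ± 0.05), and both members of the list of miR-103 and miR-107 (median -0.45). In each of these lists 0 of 2 passed with quantile normalization or with the percentile over all mouse miRNAs. Of miR-99, miR-100 and miR-125 names 1 of 5 was higher and 3 lower (median -0.63). Of the miR-30 family 2 of 5 were lower and 0 higher (median -0.23), and this followed the scaling, since 2 were higher and 0 lower with quantile normalization. Its miR-30a stood at -0.23 ± 0.02.

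Some lists held 1 to 3 bright members. miR-181b was higher in KO cells, with 34.9 and 36.3 there and 23.8 and 21.9 in WT cells (0.23 ± 0.05), but did not pass with any 1 of the 4 arrays left out. It was not well above background on all 4 arrays and entered the test through 1 genotype, so its call follows in part from the filter. miR-143, known from smooth muscle and other mesenchymal cells, had 83.7 and 94.2 in KO cells and 65.9 and 57.8 in WT cells (0.12 ± 0.06), which did not pass. This followed the scaling, since miR-143 passed as higher with median scaling (0.44), quantile normalization (0.72), the 4-array percentile (0.24) and no scaling (0.53). Beside miR-455 the cartilage list held miR-140 at -0.21 ± 0.06, which did not pass. Of the 71 Dlk1-Dio3 miRNAs on the array 1 was bright enough to be tested and it did not pass, but it passed as higher with median scaling, the 4-array percentile and no scaling. Of 121 passenger (star) strands 10 were tested, of which 2 were higher and 4 lower (median -0.05), beside 13% and 56.5% of all tested miRNAs. Of the 10, 6 were well above background on all 4 arrays. The rest, among them the higher miR-24-1*, entered the test through 1 genotype.

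None of the 39 viral names was tested in the comparison. One of them, mghv-miR-M1-2, named for a mouse herpesvirus, was well above background on replicate 1 of both genotypes, with 100% of its spots and a mean signal of 35.8 in KO cells and 36.3 in WT cells. On KO replicate 2 the mean signal was 9.59, with 45% of spots well above background, and on WT replicate 2 it was 10.1, with 0%.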
